A study of Homo sapiens with 2 samples.

Results

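Mature miRNAs named miR-6715 to miR-6895 were examined in a human T-cell line with and without forced expression of the long non-coding RNA PELATON. They were chosen by the range of their names, which includes miR-6775-3p, with earlier results of these data known. Of the 1450 mature miRNAs listed in the deposited table, 207 (14.3%) fell in this range, 116 from the 5p arm and 91 from the 3p arm. Both groups were Jurkat cells, an established T-cell leukaemia line, and no other line entered the comparison. By the study's methods, cells were transduced with lentivirus and selected with puromycin; 1 group received the control virus, and the other the virus for PELATON, which the sample labels call lnc-CEBPB-13 overexpression. The labels gave 1 sample a group, but each deposited group mean resolved into the whole reads of 2 libraries, called A and B here, and no source says whether these were separate cultures or repeats of 1 RNA. The spread between them may therefore be technical. PELATON itself is not among the miRNAs measured, so the direction of each difference rests on the labels and could not be checked. The sources differ on it: the study's text describes miR-10b-5p as falling when PELATON was overexpressed, and likewise miR-1291 and miR-6775-3p. By its qPCR, miR-10b-5p also fell in blood mononuclear cells overexpressing PELATON and rose after PELATON knockdown. In those overexpressing cells miR-1291 and miR-6775-3p did not change significantly. The authors' deposited fold change is named as control over overexpression, the inverse of the ratio used here. By the labels, each of these miRNAs is higher with overexpression in this table. Their log2 ratios of overexpression over control are 3.25, 1.19 and 2.88 in that order. Higher and lower are stated by the labels throughout, and each would turn if the group codes were exchanged.

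The study asked which miRNAs differed when PELATON was overexpressed, in work on type 2 helper T cells. Most names in this range belong to mirtrons. A mirtron is a miRNA hairpin that lies in a short intron and is cut out by the spliceosome instead of the nuclear nuclease Drosha; the debranched intron then folds and goes to Dicer. In a tailed mirtron only 1 end of the hairpin coincides with a splice site, and the single-stranded tail at the other end is trimmed away. Mirtron arms carry the marks of the intron they come from, with G-rich 5p arms and pyrimidine-rich 3p arms that end in the AG of the splice acceptor.

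The sequences below are those of abundant members and of the members with the widest separation between the groups, with the partner arm where the arms differed most. They are RefSeq mature sequences of build GRCh38.p14, written 5′ to 3′, with the seed (bases 2 to 8, which pair with the target) in capitals. RefSeq held 183 of the 207 members.
miR-6724-5p: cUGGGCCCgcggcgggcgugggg
miR-6877-5p: aGGGCCGAaggguggaagcugc
miR-6803-5p: cUGGGGGUggggggcugggcgu
miR-6803-3p: uCCCUCGCcuucucacccucag
miR-6763-5p: cUGGGGAGuggcuggggag
miR-6734-5p: uUGAGGGGagaaugagguggaga
miR-6820-5p: uGCGGCAGagcugggguca
miR-6797-5p: aGGAGGGAaggggcugagaacagga
miR-6797-3p: uGCAUGACccuucccuccccac
miR-6807-5p: gUGAGCCAguggaauggagagg
miR-6807-3p: cACUGCAUuccugcuuggcccag
miR-6775-5p: uCGGGGCAugggggagggaggcugg
miR-6775-3p: aGGCCCUGuccucugccccag
Of the 3p sequences above, those of miR-6803, miR-6807 and miR-6775 end in AG, and that of miR-6797 does not. All 5p sequences above except those of miR-6877 and miR-6807 hold a run of at least GGGG.

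These features held across the set. Among the 104 members of the 5p arm with a sequence, the median G content was 50%, against 28.6% for the 410 5p miRNAs of other names, and 57 of them (54.8%) held GGGG, against 49 of those 410. Among the 79 members of the 3p arm, the median share of C and U was 73.9%, against 54.5% for the other 3p miRNAs, and 60 (75.9%) ended in AG, against 10.7%. The median GC content was 62.5% for 5p and 61.9% for 3p members, against 50% for other miRNAs of either arm. Length did not set them apart, with a median of 22 bases in each of these classes.

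Most hairpins had the annotated position of a mirtron; the reads themselves carry no positions. RefSeq placed 126 hairpins with a listed arm on GRCh38, and these were set against introns of GENCODE v29 on the same strand. In 109 of them the 3′ end lay within 5 bases of a splice acceptor while the 5′ end lay inside the intron, which is the layout of a 5′-tailed mirtron. In 7 both ends met the ends of 1 intron, 4 met only the donor, 4 met neither end and 2 lay in no annotated intron. The 3′ end fell exactly on the acceptor in 116 of the 126. The 3p arm itself ended exactly there in 90 of the 117 intronic hairpins with an annotated 3p arm. Tails of the 109 ranged from 9 to 9141 bases with a median of 233, and 33 were under 100 bases while 26 were over 1000. Where a hairpin lay in several annotated introns, the intron matching most of its ends was used and, among equals, the shortest. Tails may therefore be longer in other transcripts.

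**Figure D1:**
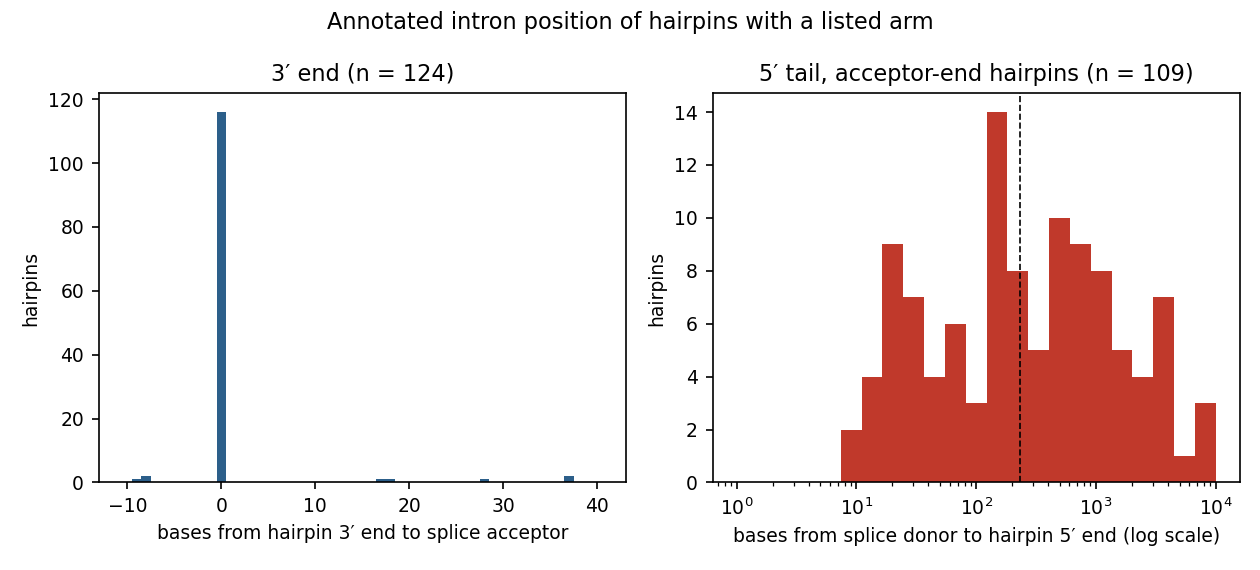
Left, the distance in bases from the 3′ end of each intronic hairpin to the splice acceptor (negative values reach into the exon). Right, the distance from the splice donor to the 5′ end of the 109 hairpins that end at an acceptor, on a log scale with the median of 233 dashed; 116 hairpins sit at 0 on the left, while the tails on the right spread from 9 to 9141 bases.

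Individual loci show the range. MIR6807 (chr19:58550285-58550376, plus strand) fills a whole 92-base intron of TRIM28, which encodes a transcriptional co-repressor. MIR6803 (chr19:55245186-55245250, minus strand) ends at an acceptor of PPP6R1, a phosphatase regulatory subunit, behind a tail of 14 bases. The same gene holds MIR6802 and MIR6804, with tails of 22 and 457 bases. MIR6775 (chr16:87834592-87834660, minus strand) ends at an acceptor of SLC7A5, which encodes a large neutral amino acid transporter, behind a tail of 1837 bases. MIR6877 (chr9:133051996-133052059, plus strand) lies in GTF3C5, a subunit of an RNA polymerase III initiation factor, with a tail of 1017 bases. MIR6797 (chr19:41869627-41869698, plus strand) lies in RPS19, a ribosomal protein gene, with a tail of 412 bases.

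A few members with at least 10 reads did not have a mirtron position. The most abundant of all members, miR-6724-5p, was annotated at 2 loci of chromosome 21 in no GENCODE intron (the first at chr21:8249505-8249596), and reads of identical copies cannot be told apart. MIR6840 (in PILRB) stopped 28 bases before its acceptor. MIR6721 (in AGPAT1) and MIR6852 (in TLN1, which encodes the focal adhesion protein talin) were annotated 9 and 8 bases past the acceptor into the exon, and the 3p arm of miR-6852 ended exactly at the acceptor.

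The members were rare. The 4 libraries held 2052494 (overexpression A), 1177485 (overexpression B), 2615868 (control A) and 2663279 (control B) miRNA reads, of which 2874 in all came from members. The median member had 6 reads over the 4 libraries, against 33 for a miRNA of another name, and 47 members had only 1 or 2. Reads appeared in every library for 52 members, in 3 libraries for 36, in 2 for 52 and in 1 alone for 67. The 10 highest members held 36.5% of member reads. Values at this depth are limited by counting: 3 reads over both libraries of a group, the number that a count of 0 allows, correspond to a group mean of 1.72 normalized counts for overexpression and 1.24 for control. In all, 62 members had 0 reads with overexpression and 22 had 0 in control, in groups that differed in depth as given above.

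Facts of the whole table bear on these values in several places. Markers of the lymphoid and T lineage were measured for 8 of 8, with summed normalized counts of 343598 to 388415 over the libraries. Most of this sum was miR-181a-5p, at 236159 to 258581, while miR-155-5p of the same list was at 2.72 to 11.0. The myeloid marker miR-223-3p was at 3618 to 4845, and the epithelial list summed to 643 to 868. None of these myeloid and epithelial markers was counted as higher or lower. Muscle miRNAs, which mark another tissue, summed to 4078 and 4891 with overexpression and to 56.0 and 33.1 in control; 4 of 5 were counted as higher, miR-133b and miR-206 had 0 reads in both control libraries, and miR-499a-5p lay between 21.7 and 30.9 in every library. The liver marker miR-122-5p was at 52.7 and 183 with overexpression and at 32.0 and 28.0 in control. The neuronal marker miR-124-3p was at 35.4 and 52.7 with overexpression and at 0 and 0.848 in control (limma adjusted p = 0.0108), and miR-9-5p, also on that list, was lower with overexpression (adjusted p = 0.0268). Of the lymphoid list, miR-146a-5p was higher (adjusted p = 0.0250) and miR-142-5p lower (adjusted p = 0.0402). The part of such RNA in the differences of the members was not tested.

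As a share of all miRNA reads, the members summed to 0.0400% in overexpression A (95% exact binomial interval 0.0373 to 0.0428%) and 0.0443% in overexpression B (0.0406 to 0.0483%). The shares were 0.0344% in control A (0.0322 to 0.0367%) and 0.0238% in control B (0.0220 to 0.0257%). The intervals cover counting error only, since reads copied by PCR are not independent molecules. Both overexpression libraries were above both control libraries, and the 2 control libraries differed from each other by more than the overexpression libraries did. The ratio of the group means was 1.45, and the exact two-sided permutation test over 2 against 2 libraries gave p = 0.333, the smallest it can give. Without control A the ratio was 1.77. Without miR-6724-5p, which alone gave 336 of the 2874 reads, it was 1.42. Scaled by the deposited size factors instead, members summed to 745 and 809 normalized counts with overexpression and to 720 and 537 in control, a ratio of 1.24.

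The arms of the set were read separately. The 5p arms had a ratio of 1.54 and the 3p arms of 1.28 between the group means of their shares. For comparison, mirtrons described earlier than this block of names (miR-877, miR-1224 to miR-1229, miR-1234 and miR-1236 to miR-1238) had 16 of 21 listed arms in the table, and these summed to 0.0767% and 0.0824% with overexpression and to 0.0758% and 0.0593% in control. Their ratio was 1.18, and miR-877-5p alone had 1078, 650, 1389 and 1133 reads in overexpression A and B and control A and B. With miR-877-5p included, the 16 older arms took a larger share than the 207 members in every library. That arm had 4250 reads in all and the next highest, miR-1224-5p, had 797, so this order rests on miR-877-5p alone.

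**Figure D2:**
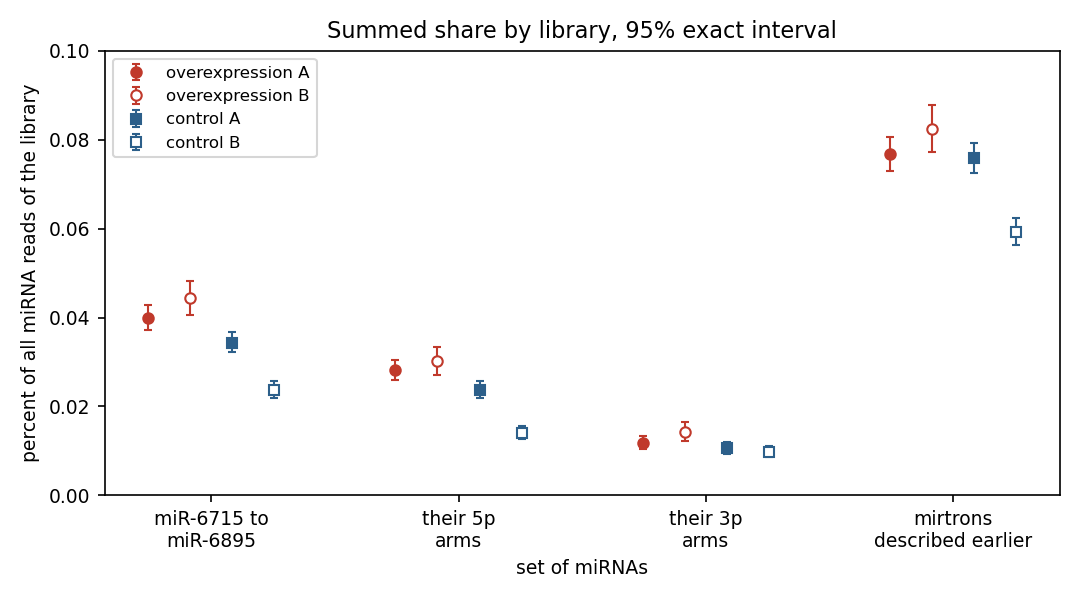
Percent of all miRNA reads of a library taken by the members, by their 5p and 3p arms, and by mirtrons described earlier, with 95% exact binomial intervals; circles are overexpression and squares control, filled for library A and open for B. Member shares are 0.0400% and 0.0443% with overexpression and 0.0344% and 0.0238% in control, with control B the lowest in each of the 4 sets.

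Abundant members were followed library by library, in the order overexpression A, overexpression B, control A and control B. miR-6724-5p had 111, 60, 110 and 55 reads, which gave group means of 96.9 for overexpression and 67.4 for control after normalization. Its 2 control libraries differed beyond counting error (exact binomial test with Benjamini-Hochberg adjustment, adjusted p = 0.000483). The log2 ratio of overexpression over control, taken on normalized counts with a pseudocount of 1, was 0.52. miR-6877-5p had 47, 15, 47 and 30 reads, with group means of 33.0 and 31.5, and its libraries overlapped fully (log2 ratio 0.06). miR-6803-3p had 17, 16, 47 and 39 reads and a log2 ratio of -0.78, with both overexpression libraries below both control libraries. The most abundant members thus differed in direction.

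miR-6886-5p had 42, 12, 22 and 10 reads, with means of 28.4 and 13.0 normalized counts and a log2 ratio of 1.06. Its partner miR-6886-3p had 10, 5, 15 and 12 reads and a log2 ratio of -0.36, so the 2 arms of this hairpin leaned in opposite directions. miR-6763-5p had 32, 15, 25 and 7 reads (log2 ratio 0.96), and miR-6763-3p had 3 reads in overexpression B and 0 in the others. miR-6734-5p, from an intron of the fatty acid elongase gene ELOVL1, had 25, 17, 19 and 11 reads (log2 ratio 0.94). Both of its overexpression libraries lay above both control libraries after normalization. Its partner miR-6734-3p had 0, 0, 6 and 1 reads. The control mean of miR-6734-3p was 1.64-fold the floor of 3 reads over the overexpression group. That figure leaves out the counting error of the control reads, 6 of which came from control A.

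miR-6820-5p, from POLR2F, which encodes a subunit of the RNA polymerases, had 17, 18, 22 and 11 reads and a log2 ratio of 0.65, while miR-6820-3p had 5, 2, 0 and 4 (0.84). miR-6842-3p had 21, 12, 9 and 20 reads (0.60) and miR-6842-5p had 0, 8, 2 and 3. miR-6741-5p had 11, 15, 11 and 5 reads and a log2 ratio of 1.23, with the groups apart, while miR-6741-3p had 12, 0, 7 and 8 (-0.16). The tenth most abundant hairpin was miR-6855, in the deubiquitinase gene USP20, with 14, 5, 8 and 8 reads of its 3p arm (0.56) and 4, 5, 11 and 8 of its 5p arm (-0.40). Hairpins in which the minor arm had few reads give no reliable direction for that arm.

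**Figure D3:**
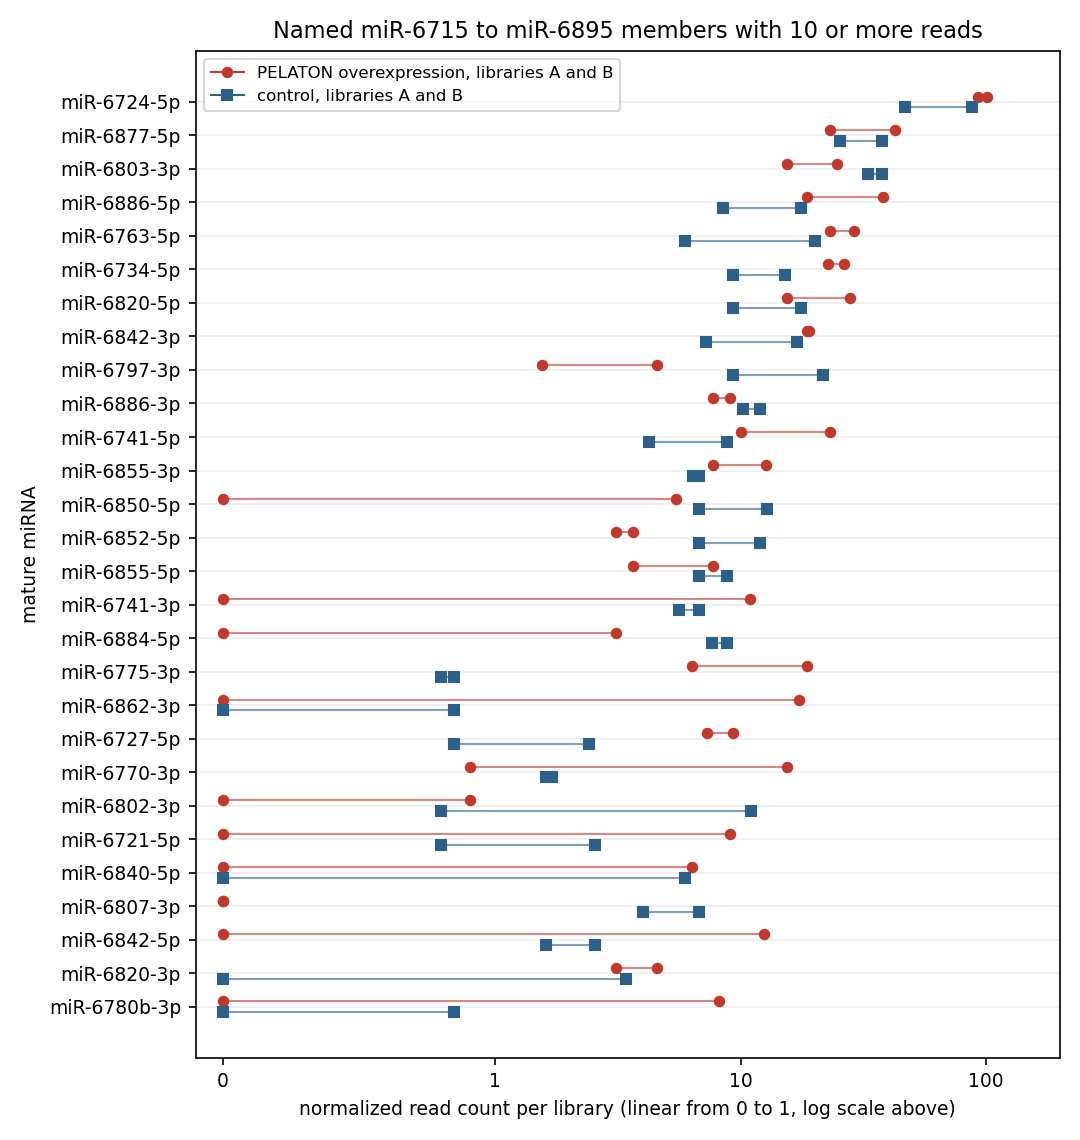
Normalized read count of each named member with at least 10 reads in all, by library, on an axis that is linear from 0 to 1 and logarithmic above; circles are overexpression and squares control, joined within a group. miR-6724-5p is the highest at group means of 96.9 and 67.4, and miR-6775-3p, miR-6807-3p and miR-6797-3p are among those whose groups do not overlap.

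Arm bias could be read in 66 hairpins with both arms listed; 50 further hairpins had only the 5p arm and 25 only the 3p arm in the table. Over all members the 5p arms had 1928 reads and the 3p arms 946. Of the 48 hairpins with at least 10 reads over both arms, 31 had more 5p and 17 more 3p reads, and the median 5p share was 64.5%. The exact binomial interval of the 5p share lay wholly above 50% in 20 and wholly below it in 9. The leading arm was the same in all 4 libraries for 10 hairpins led by 5p and 5 led by 3p. Among 310 hairpins of other names with at least 10 reads, 150 were led by 5p and 160 by 3p, with a median 5p share of 43.8%. With reads pooled over hairpins, 5p arms took 60.4% in the 48 member hairpins and 62.7% in these 310, so the pooled shares were close. Restricted to the 123 of these with under 200 reads, 61 were led by 5p and 62 by 3p. At a minimum of 20 reads, the median 5p share of this restricted set was 55.2%, against 67.6% for members. The interval lay wholly above 50% in 49 of the 123 and wholly below it in 49. Their leading arm was the same in all 4 libraries for 37 hairpins led by 5p and 35 led by 3p. A constant lead was thus less frequent among the 48 member hairpins than among these 123, but the sets were not matched for depth. At a minimum of 20 reads, 32 member hairpins and 102 of the others remained. The lead was constant for 9 (5p) and 5 (3p) of those 32, and for 37 and 33 of those 102. Whether depth accounts for the difference was not tested.

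The most one-sided hairpins went both ways. miR-6877 had 139 reads from 5p and 4 from 3p, a 5p share of 97.2% (95% exact interval 93.0 to 99.2%). miR-6763 had 79 against 3 (96.3%, 89.7 to 99.2%) and miR-6804 had 45 against 1 (97.8%, 88.5 to 99.9%). These 3 hairpins were led by 5p in every library. In miR-6803 the order was the other way, with 2 reads from 5p and 119 from 3p (1.65%, 0.201 to 5.84%), although it lies in the same host gene, PPP6R1, as miR-6804. miR-6775 had 1 read from 5p and 21 from 3p (4.55%, 0.115 to 22.8%), and miR-6816 had 5 against 32 (13.5%, 4.54 to 28.8%). miR-6855, at 28 against 35 (44.4%, 31.9 to 57.5%), and miR-6741, at 42 against 27 (60.9%, 48.4 to 72.4%), showed no lead beyond counting error.

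**Figure D4:**
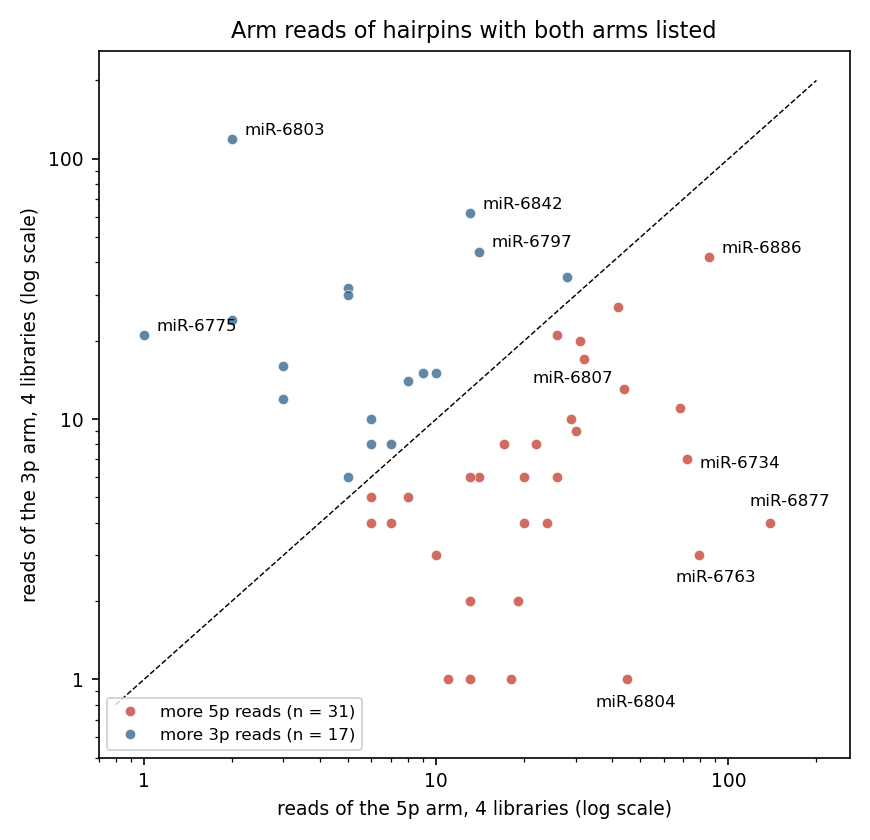
Reads of the 5p arm against reads of the 3p arm for the 48 hairpins with both arms listed and at least 10 reads, summed over 4 libraries, both axes logarithmic, with equal reads on the dashed line. There are 31 hairpins below the line and 17 above it; miR-6803 (2 against 119) and miR-6877 (139 against 4) lie near opposite corners.

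By library, 5p arms took 70.4% of member reads in overexpression A (67.1 to 73.5%), 68.0% in overexpression B (63.8 to 72.0%), 69.2% in control A (66.1 to 72.2%) and 59.1% in control B (55.1 to 62.9%). Control B alone stood apart. Of the 48 hairpins, 23 had a higher and 25 a lower 5p share with overexpression. In 3 of them the exact intervals of the 2 groups did not overlap, with reads pooled within a group. No share over hairpins of other names stands beside these counts, so they do not show a trait of this set. miR-6797 had 10 reads from 5p and 6 from 3p with overexpression (62.5%, 35.4 to 84.8%) but 4 and 38 in control (9.52%, 2.66 to 22.6%). miR-6807 had 25 and 0 with overexpression (100%, 86.3 to 100%) and 19 and 13 in control (59.4%, 40.6 to 76.3%). The third, miR-6862, had 18 and 19 against 13 and 1, and all 19 of those 3p reads came from overexpression A. The intervals leave out the spread between libraries.

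For the group difference, a miRNA was counted where its ratio reached 2-fold and its normalized count averaged 1 or more over the groups; this is a description without a test, and 129 members reached that level. Of these, 34 (26.4%) were counted as higher with overexpression, where 15.6% of all 1115 miRNAs at that level were, and 22 (17.1%) as lower, where 14.7% were. The remaining 73 were neither. The members sit at low levels, where ratios scatter more: among the 409 miRNAs of other names with a mean of 1 to 10, 23.0% were counted as higher and 21.0% as lower. The median log2 ratio was 0.40 over the 129 members, 0.06 over all 1115 and 0.04 over those 409. It was 0.06 over all 207 members without the filter on the mean. Scaling to total reads moved the median of all miRNAs to 0.28 and that of the members to 0.68, and then 44 members were higher and 16 lower, where 20.5% and 9.60% of all 1094 miRNAs were. The share of counted members that were higher was then 73.3%, against 60.7% with the deposited factors. Over all counted miRNAs it was 68.1%, against 51.5%.

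The arms gave similar counts. Of 77 members of the 5p arm at this level, 19 were counted as higher and 13 as lower (median log2 ratio 0.39), and of 52 of the 3p arm, 15 and 9 (0.44). By position, the 91 members of acceptor-end hairpins gave 21 higher and 17 lower, and the 7 of whole-intron hairpins gave 1 and 2. Both libraries of one group lay outside those of the other for 25 members on the higher side (19.4%, against 22.4% of all miRNAs) and for 21 on the lower side (16.3%, against 23.8%). Among the 409 miRNAs of other names with a mean of 1 to 10, the shares were 15.4% on the higher and 17.4% on the lower side. Of the members counted at 2-fold, 13 of the 34 higher and 16 of the 22 lower were also separated in this way. No share over all miRNAs stands beside this joint count, so it gives no comparison with them.

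The libraries were tested with limma on log2 normalized counts, with Benjamini-Hochberg adjustment over the 1115 miRNAs. No member, 0 of 129, passed an adjusted p of 0.05, where 1.88% of all miRNAs passed on the higher and 3.05% on the lower side. At an unadjusted p of 0.05, 3 members passed (18.6% of all miRNAs did). The median standard error of the log2 difference was 1.06 for members and 0.71 for all miRNAs. In the fit without control B, given next, control A stands alone, so the measured spread comes only from the overexpression libraries. Members such as miR-6749-3p, miR-6798-3p and miR-6786-5p passed in it with 0 reads in both of those libraries. They had 3, 3 and 6 reads in control A. For such members the measured spread was 0, so that fit cannot decide whether they were lower. Without control B, 19 members passed, all on the lower side, where 69 of all 1101 miRNAs (6.27%) did and 0.0908% passed on the higher side, with a lowest adjusted p of 0.0244 among members, and leaving out any of the other 3 libraries gave 0.

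**Figure D5:**
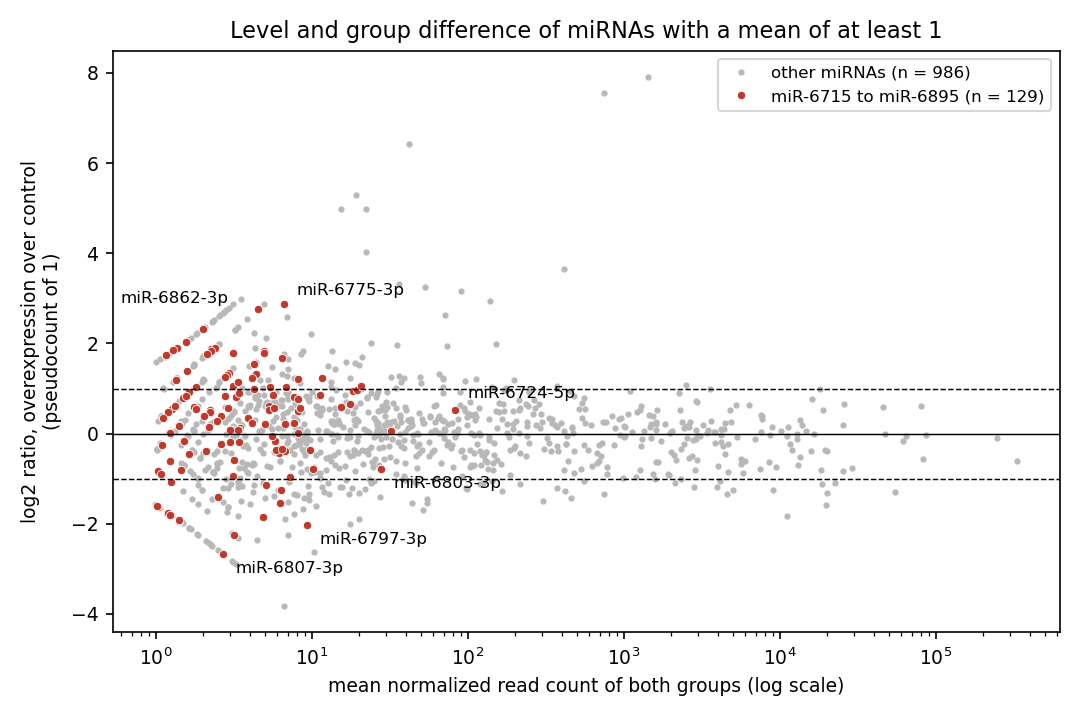
Log2 ratio of overexpression over control (pseudocount of 1) against the mean normalized count of both groups on a log scale, for 129 members in red and 986 other miRNAs in grey; dashed lines mark a 2-fold ratio. The members crowd at low means, where ratios of all miRNAs are widest, and 34 lie above the upper and 22 below the lower line.

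The 3 members past the unadjusted threshold were all 3p arms. miR-6775-3p was followed further in the study by qPCR in blood mononuclear cells overexpressing PELATON, where it did not change significantly. In the Jurkat libraries miR-6775-3p had 7, 12, 1 and 1 reads, with the direction by the labels. Its normalized counts averaged 12.5 with overexpression and 0.824 in control, and the groups did not overlap. The ratio of pooled reads, scaled by depth, was 13.2 with a counting interval of 3.19 to 117. The limma difference was 2.72 (SE 0.91, unadjusted p = 0.016, adjusted p = 0.162), and its log2 ratio stayed between 2.01 and 3.42 when 1 library was left out. The partner miR-6775-5p had a single read, in control B.

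The other pair lay on the lower side. miR-6807-3p, from the TRIM28 intron, had 0, 0, 5 and 8 reads (limma adjusted p = 0.188). Its control mean was 3.14-fold the floor of the overexpression group, leaving out the counting error of the control reads. Its partner miR-6807-5p had 14, 11, 13 and 6 reads and a log2 ratio of 0.86. miR-6797-3p, from RPS19, had 5, 1, 27 and 11 reads, with means of 3.05 and 15.5 normalized counts (log2 ratio -2.03, adjusted p = 0.236). Its partner miR-6797-5p had 3, 7, 1 and 3 reads and a log2 ratio of 1.54. In both hairpins the 3p arm was lower and the 5p arm higher with overexpression, by values that did not pass the adjusted threshold.

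Among the remaining members with the largest ratios, several rested on 1 library. miR-6862-3p had 19, 0, 0 and 1 reads and a log2 ratio of 2.76, which became -0.51 without overexpression A; its hairpin is annotated in the paired translation factor genes EIF3C and EIF3CL, whose copies cannot be told apart. miR-6780b-3p had 9, 0, 0 and 1 reads (1.84, or -0.51 without overexpression A), and miR-6770-3p, annotated at 3 loci, had 1, 10, 2 and 2 (1.8, or -0.47 without overexpression B). miR-6727-5p, from INTS11, which encodes the nuclease of the Integrator complex, was spread more evenly at 8, 6, 3 and 1 reads (1.82), and its groups did not overlap.

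On the lower side, miR-6802-3p had 1, 0, 1 and 13 reads (log2 ratio -2.25), with 13 of its reads in control B. miR-6884-5p, from the Mediator subunit gene MED24, had 0, 2, 11 and 9 reads (-1.85), and both control libraries were above both overexpression libraries. miR-6850-5p had 6, 0, 16 and 8 reads (-1.54) and miR-6852-5p had 4, 2, 15 and 8 (-1.25), again with the groups apart. Of the members outside mirtron positions, miR-6721-5p had 10, 0, 1 and 3 reads (1.05, or -1.42 without overexpression A) and miR-6840-5p had 7, 0, 0 and 7 (0.07, from -1.99 without overexpression A to 2.06 without control B), each with 0 reads in at least 1 library.

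Such patchy counts were measured directly. The split of a miRNA's reads between the 2 libraries of a group was set against their depths by an exact binomial test, for groups with at least 10 reads and with adjustment over all 1502 such tests. It was beyond counting error in 20 of 80 member tests (25%), from 19 members, against 36.0% over all miRNAs and 20.4% over miRNAs of other names with 10 to 99 reads. miR-6873-3p had 18 and 0 reads with overexpression and 18 and 2 in control, and its groups overlapped entirely (log2 ratio 0.02). miR-6859-5p, annotated at 4 loci, had 2 and 14 with overexpression, and miR-6871-5p had 17 and 0 in control.

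The 183 members with a sequence carried 175 different seeds, so most of the set shared no seed with another member. Only 7 seeds were held by more than 1 member, 15 members in all. The seed UGGGGUG was common to miR-6737-5p, miR-6812-5p and miR-6819-5p, with 14 reads between them, and UGGGAGG to miR-6779-5p and miR-6780a-5p, with 53. A further comparison was with miRNAs of other names, where 25 members had a listed miRNA with the same seed. These partners are shown for their shared seed in capitals.
miR-6775-3p: aGGCCCUGuccucugccccag
miR-1291: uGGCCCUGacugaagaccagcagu
miR-6838-5p: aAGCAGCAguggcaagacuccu
miR-16-5p: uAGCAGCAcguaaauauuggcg
miR-6807-3p: cACUGCAUuccugcuuggcccag
miR-217-5p: uACUGCAUcaggaacugauugga
miR-1291, which shares its seed with miR-6775-3p, had 370, 136, 145 and 144 reads (log2 ratio 1.19 by the labels, limma adjusted p = 0.0614), 795 reads against 21 for the member. The seed of miR-6838-5p is that of the miR-15 and miR-16 family, which restrains the cell cycle and BCL2 in lymphocytes. The 6 listed miRNAs of that seed had 67050 reads in all, against 25 for miR-6838-5p, so the member gave few of the reads with this seed. miR-217-5p had 7, 8, 0 and 1 reads (log2 ratio 2.87) and miR-6807-3p had 0, 0, 5 and 8, so miRNAs with the same seed lay on opposite sides.

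The older mirtrons gave a second view of the same class. Of their 16 arms in the table, 11 had a mean of at least 1, 1 was counted as higher (miR-1227-3p, with 4, 16, 6 and 2 reads) and 2 as lower (miR-1234-3p and miR-1237-3p). Their median log2 ratio was -0.02. By limma, 0 passed the adjusted and 0 the unadjusted threshold. miR-877-5p, with 4250 reads the deepest of these 16 arms, had means of 993 and 1037 normalized counts and a log2 ratio of -0.06. The difference between the older and the newer names was not tested.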

How the data were processed

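Small RNA of 2 Jurkat samples, 1 control and 1 with lnc-CEBPB-13 (PELATON) overexpression, was compared. The study's methods name a small RNA kit, while the labels describe an mRNA kit. The authors normalized read counts with DESeq size factors, on GRCh38.p14 per the labels; the aligner is not given in the sources used here. The deposited table gives signal values: normalized counts averaged over each group, and over both. The deposited ratio (fold change), its log2 value and the p-value columns of the authors' own comparison were not used.

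Each group mean was solved as a sum of whole reads of 2 libraries divided by 2 size factors (relative tolerance 1e-12); 1450 of 1450 values (100% in both groups) had 1 solution. The factors were 1.10, 0.645, 1.25 and 1.18, and median-of-ratios factors recomputed from 788 miRNAs came out the same. Python 3.11.15, scipy 1.17.1 and limma 3.58.1 in R 4.3.3 were used, limma with a trended prior variance, a pseudocount of 1, a mean of at least 1 and an adjusted p of 0.05; the scripts were tested on simulated data. The log2 ratio with a pseudocount understates differences of low miRNAs. Of 164 RefSeq hairpins in the range, 164 had the same coordinates in GENCODE v29. Named members are both arms of the 10 hairpins with the most reads, the arms of miR-6775, the 5 highest and 5 lowest ratios among those counted with at least 10 reads, and members outside mirtron positions with at least 10 reads; others that illustrate arms, splits or seeds were named after their values were seen. Members and lists were chosen with earlier results of these data known.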

Additional observations from a re-analysis of the deposited data

How the results depend on the processing

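The counts of 34 members higher and 22 lower became 4 and 4 under a pseudocount of 5, 7 and 4 among those averaging 5 or more, and 4 and 3 at a 4-fold threshold; 52 were higher at a 1.5-fold threshold, and 36 were lower (41 higher) without a filter. TMM scaling gave 29 and 23, upper-quartile scaling 29 and 24, and totals without the 10 most abundant miRNAs 43 and 16. Leaving out each library in turn gave 36 to 48 higher and 15 to 33 lower. The limma count of 0 members held under every other setting run except without control B, where it ranged up to 19 (0 to 19 over the 4 libraries left out); with a library left out, the lone library is assumed to vary like the others. The summed share ratio ranged from 1.23 without control B to 1.77 without control A. At a minimum of 20 reads, 11 hairpins were led by 3p and 21 by 5p. The 116 hairpins at an acceptor were 116 within 2 bases also. Among named members counted at 2-fold, the log2 ratios that changed sign were, without overexpression A, those of miR-6721-5p (-1.42), miR-6780b-3p (-0.51) and miR-6862-3p (-0.51), and, without overexpression B, those of miR-6770-3p (-0.47) and miR-6842-5p (-1.62). With each library left out in turn, their lowest to highest log2 ratios were -1.42 to 1.92, -0.51 to 2.69, -0.51 to 3.68, -0.47 to 2.64 and -1.62 to 2.12 in that order. Over all counted members, 7 changed sign without overexpression A and 8 without overexpression B. Of the named members not counted, miR-6840-5p (-1.99 to 2.06), miR-6741-3p (-2.85 to 0.73) and miR-6877-5p (-0.42 to 0.43) also crossed 0. The cause was not tested. No paired analysis was possible because each group is 1 labelled sample and the library letters carry no pairing. The share without miR-6724-5p and the sums scaled by size factors were added after seeing the data. Depth limits the set, since 47 of the 207 members have only 1 or 2 reads in all.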
